A study of Mus musculus with 24 samples.

Results

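Oxidative phosphorylation was followed through 110 genes, of 27179 in the count table, in sorted epithelial cells of the pubertal mouse mammary gland. The members were taken by symbol. They are the 13 protein genes of the mitochondrial genome, and 97 nuclear protein-coding genes whose symbols begin with Nduf, Uqcr, Atp5 or Cox4 to Cox8, together with Sdha, Sdhb, Sdhc, Sdhd, Cycs and Cyc1. Of the mitochondrially encoded members, 7 code for subunits of complex I, 1 for complex III, 3 for complex IV and 2 for complex V. Of the nuclear-encoded members, 40 carry symbols of complex I, 8 of its Ndufaf assembly factors, 4 of complex II, 9 of complex III, 18 of complex IV and 17 of complex V, and the last is Cycs, the soluble carrier cytochrome c. Ndufa4 was counted with complex I by its symbol, although its protein is now assigned to complex IV.

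The respiratory chain passes electrons from NADH (complex I) and succinate (complex II) through ubiquinone to complex III, by cytochrome c to complex IV, and on to oxygen. Complexes I, III and IV pump protons across the inner mitochondrial membrane, and complex V, the ATP synthase, lets them back to make ATP. Complex II is wholly nuclear-encoded, and each of the other complexes joins subunits from both genomes. The mitochondrial genes are transcribed as long precursors from both strands of the circular genome by a dedicated polymerase, while the nuclear genes have separate promoters, many of them bound by NRF1, ETS-family factors such as GABPA, and YY1.

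The growing tip of the pubertal mammary duct is the terminal end bud (TEB), and the duct behind it is the more mature structure. The study compared microdissected TEBs with ducts in mice of 2 models. In the Elf5 model (Elf5-rtTA-IRES-GFP), GFP reports activity of Elf5, a transcription factor of the luminal alveolar lineage. In the PR-cre model (PR-cre/Rosa26-LSL-eYFP), cre made from the progesterone receptor gene switches on YFP for good, so YFP marks cells that make the cre or descend from cells that did. Lineage-negative EpCAM+ cells were sorted as CD29hi basal cells in each model, and as CD29lo luminal cells that were GFP+, GFP-, YFP- or YFP+. These 6 gates, each from TEBs and from ducts, give 12 groups of 2 libraries. The labels give the mice as pubertal without an age. Nothing in them says that a pair of libraries stands for different mice, so the p-values measure the spread between libraries, which may be technical.

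Total counts, in units of 1e6, ran from 31.3 to 52.5 per library, and the 110 members took 2.44 to 5.83% of them. Levels are given as CPM, counts scaled to a common library total, after TMM, an edgeR method that allows for differences in library make-up. The gates matched their labels. Acta2, a basal contractile gene, was at 3214 to 10230.0 CPM in basal libraries and 2.49 to 14.6 CPM in luminal ones, and Krt8, a luminal keratin, was at 153 to 478 CPM in basal and 1584 to 5241 CPM in luminal libraries. Elf5 was at 410.1 to 1657 CPM in GFP+ and YFP- cells and 15.03 to 87.3 CPM in GFP- and YFP+ cells. Pgr, the progesterone receptor gene, was at 13.2 to 73.3 CPM in GFP+ and YFP- cells and 202 to 635 CPM in GFP- and YFP+ cells. GFP+ and YFP- luminal cells were taken as one lineage, and compared with GFP- and YFP+ cells. Luminal libraries with keratinocyte transcripts were GFP- duct replicate 2, with Krt14 at 1115 CPM and summed keratinocyte markers at 2363 CPM, and YFP- TEB replicate 2, with Krt14 at 267 CPM and the markers at 488 CPM. Krt14 was at most 31 CPM in the other luminal libraries.

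Per kilobase, the mitochondrially encoded members were far more abundant than the nuclear-encoded ones. Their mean levels over the 24 libraries had a median of 1815 CPM per kb, against 55.8 CPM per kb for the nuclear-encoded members. mt-Co1, the catalytic core subunit of complex IV, stood highest at 7182 CPM per kb, ahead of mt-Cytb, the cytochrome b of complex III, at 4074 CPM per kb. mt-Nd3, a small membrane subunit of complex I, was lowest of the 13 at 569 CPM per kb. Among nuclear-encoded members Atp5b, the catalytic beta subunit of the ATP synthase, led with 590.0 CPM per kb, followed by Cox4i1 of complex IV with 386 CPM per kb and Uqcrh, the hinge protein of complex III, with 277 CPM per kb. The median level was 128 CPM per kb for complex V, 89.0 for complex III, 72.2 for complex II, 51.1 for complex I, 41.1 for complex IV and 8.49 for the complex I assembly factors. The members with too few counts to test were Cox6a2, a muscle form, with 0 counts over all libraries, Uqcr11 with 9, Cox8c with 13, Cox7b2 with 21 and Cox8b with 44. The other 105 members, 13 mitochondrially and 92 nuclear-encoded, were tested.

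The members summed in each library differed in pattern between the genomes. The 13 mitochondrially encoded members summed to 29790 to 36090 CPM in basal TEB libraries and 27160 to 34580 CPM in basal duct libraries. They summed to 29550 to 33540 CPM in GFP+ and YFP- TEB libraries and 19870 to 27890 CPM in the matching duct libraries. In GFP- and YFP+ cells the TEB sums were 30290 to 37300 CPM and the duct sums 29180 to 49220 CPM. TEB and duct sums thus overlapped in basal and in GFP- and YFP+ cells, each taken over both models, and did not overlap in GFP+ and YFP- cells. Gate by gate, the sums were also apart in GFP- cells, where TEBs were lower, and in Elf5-model basal cells, where TEBs were higher. They overlapped in YFP+ cells and in PR-cre-model basal cells.

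The nuclear-encoded sum was 7069 to 8116 CPM in basal TEB libraries and 5324 to 6500 CPM in basal duct libraries, without overlap. In luminal cells it was 6689 to 9213 CPM in TEB libraries and 5913 to 8843 CPM in duct libraries, with overlap. The ratio of the mitochondrially to the nuclear-encoded sum does not depend on the scaling of a library. It was 4.48 and 4.34 in TEB libraries and 5.62 and 5.51 in duct libraries of Elf5-model basal cells, and was thus lower in TEBs. In PR-cre-model basal cells it was 4.81 and 4.21 in TEB libraries and 4.68 and 4.83 in duct libraries, which overlapped. In YFP- cells the ratio was 4.21 and 5.01 in TEB libraries and 3.36 and 3.33 in duct libraries, while in GFP- cells it was 4.23 and 4.42 in TEB libraries and 5.64 and 5.95 in duct libraries. The direction of the TEB difference in this ratio was thus opposite in YFP- and GFP- cells. In GFP+ cells it was 4.03 and 3.95 in TEB libraries and 3.89 and 3.54 in duct libraries, and in YFP+ cells 3.29 and 3.63 in TEB libraries and 3.78 and 3.30 in duct libraries.

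**Figure D1:**
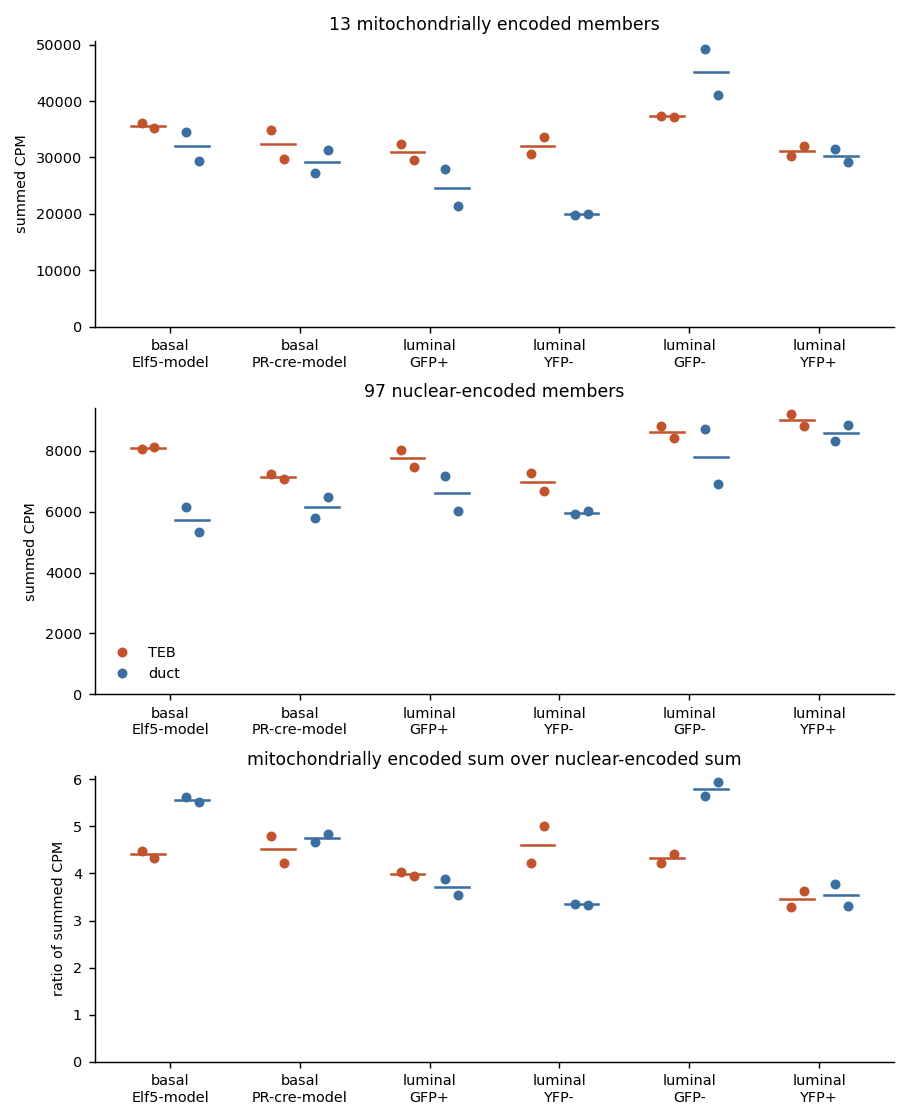
Summed CPM of the 13 mitochondrially encoded members (top), of the 97 nuclear-encoded members (middle), and their ratio (bottom), in each gate, with TEB libraries left of duct libraries. Points are libraries and bars are group means. The nuclear-encoded sum is 7069 to 8116 CPM in basal TEBs and 5324 to 6500 CPM in basal ducts, and the ratio is higher in TEBs than in ducts of YFP- cells and lower in TEBs than in ducts of GFP- cells.

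In basal cells, TEBs carried more transcript of most nuclear-encoded members than ducts, while 1 of the 13 mitochondrially encoded members passed the test. By edgeR's quasi-likelihood test with Benjamini-Hochberg adjustment over 18109 genes, 51 of the 92 nuclear-encoded members tested were higher in TEBs (20.9% of all genes tested were higher) and 1 was lower (22.8% of all genes). Their median log2 fold change was 0.33, against -0.04 over all genes tested. Of the 92, 45 had no overlap between the 4 TEB and the 4 duct libraries. The same count over all genes was not made, so the 45 has no background to be set against. Of the 13 mitochondrially encoded members 1 was called, mt-Co2, a core subunit of complex IV, at a log2 fold change of 0.30 ± 0.11 (SE, adjusted p = 0.041). Its call was lost in 5 of the 24 fits that each left out a library. The median over the 13 was 0.16, with 10 positive values and no member free of overlap. With libraries scaled by total counts alone, which raised the median of all genes by 0.18, 8 of the 13 were higher and their median was 0.35, against 0.51 for the nuclear-encoded members. The medians of the 2 genomes lay closer in PR-cre-model basal cells, at 0.19 for the nuclear-encoded and 0.12 for the mitochondrially encoded members.

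In the ATP synthase, all 17 nuclear-encoded members had positive values, 14 passed the test, and their median log2 fold change was 0.47. Atp5g1 encodes a precursor of the c subunit, which forms the rotor ring. It was at 19.9 and 20.8 CPM in TEB libraries and 10.4 and 7.81 CPM in duct libraries of the Elf5 model, and at 16.5 and 20 CPM in TEB libraries and 10.7 and 10.5 CPM in duct libraries of the PR-cre model. Every basal TEB library was above every basal duct library, and the log2 fold change was 0.97 ± 0.17 (SE, adjusted p = 0.00021).

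Atp5b was at 1291 and 1328 CPM in Elf5-model TEB libraries and 926 and 762 CPM in the duct libraries. In the PR-cre model it was at 1132 and 1048 CPM in TEB libraries and 823 and 930.5 CPM in duct libraries. Again the tissues did not overlap, and the log2 fold change was 0.47 ± 0.10 (SE, adjusted p = 0.00098). Atp5a1, the alpha subunit, rose by 0.40 ± 0.09 (SE, adjusted p = 0.00095). Atp5o, of the peripheral stalk, had a log2 fold change of 0.74 ± 0.13 (SE, adjusted p = 0.00025), but 47.9% of its exonic bases overlap other annotated genes, some on the opposite strand, and the library kit does not mark strand.

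In complex III, 7 of 8 members were higher, with a median of 0.51. Cyc1, the cytochrome c1 that hands electrons to cytochrome c, was at 117 and 120 CPM in Elf5-model TEB libraries and 66.6 and 56.8 CPM in duct libraries. In the PR-cre model it was at 86.3 and 90.0 CPM in TEB libraries and 66.2 and 67.4 CPM in duct libraries. The separation was wider in the Elf5 model, and over both the log2 fold change was 0.67 ± 0.13 (SE, adjusted p = 0.00052). Uqcrfs1, the Rieske iron-sulfur protein, rose by 0.57 and Uqcrc1, a core protein, by 0.44 on the log2 scale.

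In complex I, 17 of 40 members were higher and none was lower, with a median of 0.25. Ndufb8, an accessory subunit of the membrane arm, was at 88.2 and 78.9 CPM in Elf5-model TEB libraries and 44.9 and 35.9 CPM in duct libraries. In the PR-cre model it was at 57.9 and 60.7 CPM in TEB libraries and 38.8 and 37.4 CPM in duct libraries. It had no overlap, and its log2 fold change was 0.84 ± 0.10 (SE, adjusted p = 2.8e-06). Ndufs1, the largest subunit and part of the electron-accepting arm, rose by 0.25 ± 0.07. Of the 8 assembly factors, which help to build complex I and are not part of it, 4 were higher, among them Ndufaf5 at 0.78 ± 0.14 and Ndufaf2 at 0.70 ± 0.12.

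Complex II and complex IV moved less evenly. Sdha, the flavoprotein of complex II, was at 196 and 206 CPM in TEB libraries and 162 and 149 CPM in duct libraries of the Elf5 model, and at 201 and 196 CPM in TEB libraries and 167 and 180.5 CPM in duct libraries of the PR-cre model, without overlap and with a log2 fold change of 0.28 ± 0.06. Sdhb, the iron-sulfur subunit, rose by 0.44 ± 0.09. Of the 14 complex IV members tested 6 were higher, with Cox5a at 0.67 ± 0.15 and Cox7b at 0.62 ± 0.09, and Cox7a2l was lower. Cox7a2l encodes a factor known to join complexes III and IV into a supercomplex. It was at 89.8 and 96.3 CPM in TEB libraries and 96.6 and 91.9 CPM in duct libraries of the Elf5 model, and at 118 and 119 CPM in TEB libraries and 150.1 and 178 CPM in duct libraries of the PR-cre model. The 2 tissues overlapped in the Elf5 model and were apart in the PR-cre model, and 5 of the 24 fits that each left out a library lost the call.

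**Figure D2:**
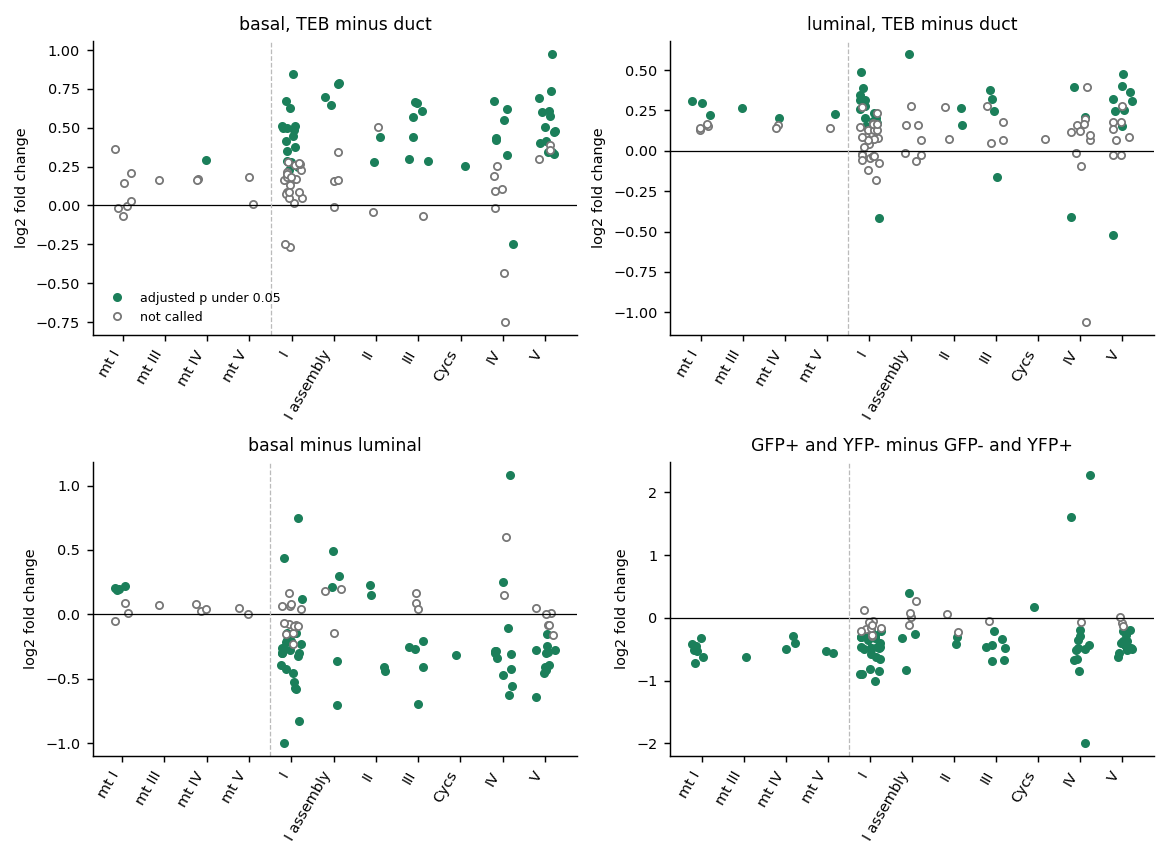
Log2 fold change (y axis) of each tested member, grouped by genome and complex (x axis), in 4 comparisons. Filled points passed an adjusted p of 0.05, open points did not, the dashed line parts mitochondrially from nuclear-encoded members, and Ndufa4l2, which was at 0 in several libraries, is not drawn. In basal cells 51 nuclear-encoded members lie above 0 as filled points, and in the comparison of luminal lineages 66 nuclear and all 13 mitochondrially encoded members lie below 0 as filled points.

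Within a single model the basal difference was carried by more called genes in Elf5-model cells. There 50 nuclear-encoded members were higher (17.2% of all genes) and none was lower (19.2% of all genes), with a median log2 fold change of 0.50. In PR-cre-model cells 14 were higher (12% of all genes) and 2 were lower (12.7% of all genes), with a median of 0.19. Whether the models differ in this was not tested. Of the 51 members called over both models, 49 had a positive value in each. The 51 were chosen on the mean of the same models, so this count is no separate support. Over all 92 tested, 69 were positive in both basal gates and 5 were negative in both. Leaving out basal Elf5-model duct replicate 2 lowered the Elf5-model count of called members to 30, and leaving out PR-cre-model duct replicate 1 lowered the PR-cre-model count to 2. No mitochondrially encoded member was called in either model by edgeR or DESeq2. At an unadjusted edgeR p under 0.05 there was 1 in the Elf5 model and 0 in the PR-cre model.

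Cell identity genes and markers of other cells also differed between basal TEBs and ducts. Krt8 was at 153 to 238 CPM in TEB libraries and 347 to 478 CPM in duct libraries, and Krt18, its luminal partner keratin, at 9.46 to 20.4 CPM in TEB and 98.6 to 137 CPM in duct libraries. The basal genes Krt14, at 345 to 804 CPM in TEB and 2987 to 3619 CPM in duct libraries, and Acta2, at 3214 to 6168 CPM in TEB and 8718 to 10230.0 CPM in duct libraries, were also lower in TEBs without overlap. For the marker counts that follow, 22.8% of all genes tested were lower in basal TEBs and 20.9% were higher. Summed leukocyte markers were at 2.66 to 4.83 CPM in TEB libraries and 14.2 to 36.5 CPM in duct libraries (3 of 7 lower). Summed endothelial markers were at 6.29 to 16.9 CPM in TEB and 6.30 to 69.9 CPM in duct libraries (4 of 7 lower), adipocyte markers at 4.36 to 9.50 CPM in TEB and 14.8 to 46.0 CPM in duct libraries (2 of 3 lower), with Adipoq at 0 in all 4 duct libraries, and pericyte markers at 19.9 to 32.1 CPM in TEB and 30.9 to 97.3 CPM in duct libraries (4 of 8 lower). Summed skeletal muscle markers were at 9.13 to 11.2 CPM in TEB and 4.72 to 9.36 CPM in duct libraries (3 of 8 higher), and fibroblast markers at 575 to 1467 CPM in TEB and 372 to 935 CPM in duct libraries (1 of 7 higher). The muscle markers were mixed. Mb was at 5.84 to 8.26 CPM in TEB and 2.67 to 4.84 CPM in duct libraries. Acta1, at 0.50 to 1.07 CPM in TEB and 1.33 to 2.04 CPM in duct libraries, went the other way. So did Ckm, at 0.025 to 0.19 CPM in TEB and 0.36 to 0.65 CPM in duct libraries. The part of all these markers in the result was not tested. In such bulk libraries, fewer cells of a type and less RNA per cell cannot be told apart.

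Promoters of the nuclear-encoded members were searched for the motifs of 3 factors named above, in windows of 300 bases from 250 before to 50 after each start site (RefSeq, GRCm38.p6). In all, 78 members matched 83 windows. The NRF1 letters, GCGCA and GCGC parted by any 1 base and read on either strand, were in 24.1% of the members' windows, against 4.60% of all 32851 promoter windows. The ETS letters CCGGAAG were in 22.9% of the members' windows, against 8.86% of all windows, and the YY1 letters AAGATGGCG in 9.64%, against 1.4%. Of members with an NRF1 match 11 of 19 tested were higher in basal TEBs, with a median log2 fold change of 0.36, and of members without, 31 of 56, with a median of 0.31. For the ETS letters the counts were 11 of 18 with and 31 of 57 without a match, and for the YY1 letters 6 of 8 with and 36 of 67 without. In luminal TEBs the members higher were 8 of 19 with and 17 of 56 without an NRF1 match, 4 of 18 with and 21 of 57 without an ETS match, and 3 of 8 with and 22 of 67 without a YY1 match. None of these differences was tested. A match is a string of letters, not a shown binding site. The following stretches, shown as examples of what a match looks like in a member, run 5′ to 3′ along the gene's strand, and capitals mark the NRF1 letters in the first 4 and the YY1 letters in the fifth. They are the assembly factor Ndufaf4 (chr4:24897950-24897999, plus strand), the ATP synthase membrane subunit gene Atp5k (chr5:108434420-108434469, minus strand), Sdha (chr13:74350309-74350358, minus strand), the complex I membrane-arm gene Ndufa11 (chr17:56717682-56717731, plus strand) and the peripheral stalk gene Atp5j (chr16:84835036-84835084, minus strand). In basal TEBs Ndufaf4 rose by 0.65 ± 0.14 and Atp5j by 0.35 ± 0.11 on the log2 scale, while Ndufa11, at 0.02 ± 0.12, was not called.

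Ndufaf4: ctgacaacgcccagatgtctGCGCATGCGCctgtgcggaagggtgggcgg
Atp5k: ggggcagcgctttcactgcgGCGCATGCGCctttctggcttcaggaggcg
Sdha: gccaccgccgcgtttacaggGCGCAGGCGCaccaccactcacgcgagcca
Ndufa11: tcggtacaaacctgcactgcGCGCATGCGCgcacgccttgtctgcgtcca
Atp5j: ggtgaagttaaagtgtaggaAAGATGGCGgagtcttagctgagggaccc

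Over the 4 luminal gates, 29 of the 92 nuclear-encoded members were higher in TEBs (20% of all genes) and 4 were lower (18.6% of all genes). The median log2 fold change was 0.15, against a value of -0.001 for all genes, and no member was free of overlap between the 8 TEB and the 8 duct libraries. The count higher was 60 with total counts alone, 18 without GFP+ duct replicate 2 and 19 without GFP- duct replicate 2, and the highest count of fits that left out a library was 41, without GFP- duct replicate 1. Summed leukocyte markers were at 2.87 to 4.51 CPM in TEB and 5.82 to 16.4 CPM in duct libraries of GFP+ and YFP- cells, and at 1.21 to 2.21 CPM in TEB and 3.39 to 7.01 CPM in duct libraries of GFP- and YFP+ cells, without overlap in either (2 of 7 lower, Ptprc and Cd74). Their part in the luminal results was not tested. The members higher in basal and in luminal TEBs shared 25 genes, 49.0% of the 51 basal and 86.2% of the 29 luminal ones. The same overlap over all genes was not counted. Of the 25, 21 were positive in each of the 6 gates, but the 25 were chosen on means of these gates. Over all 92 tested, 31 were positive in each of the 6 gates and 3 were negative in each. In single gates, nuclear-encoded members were called higher and lower 10 and 2 times in GFP+ cells (11.8% and 10.9% of all genes), 8 and 2 times in YFP- cells (10.5% and 7.97%), 5 and 2 times in GFP- cells (8.85% and 9.65%) and 1 and 0 times in YFP+ cells (4.61% and 3.25%). Complex V had 8 members higher and 1 lower, complex I 13 higher and 1 lower, and complex III 3 higher and 1 lower.

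Ndufaf2, an assembly factor of complex I, was the member called higher in the most single gates, 5 of 6. In GFP+ cells it was at 14.0 and 13.1 CPM in TEB libraries and 9.45 and 7.70 CPM in duct libraries, and in YFP- cells at 18.9 and 18.1 CPM in TEB libraries and 12.1 and 12.1 CPM in duct libraries. In YFP+ cells it was at 24.8 and 19.1 CPM in TEB libraries and 14.3 and 14.6 CPM in duct libraries. Over all luminal gates its log2 fold change was 0.60 ± 0.08 (SE, adjusted p = 3.1e-05), and over single gates it ran from 0.42 to 0.97. Of its exonic bases 65.6% overlap B230220B15Rik on the opposite strand, so reads of the pair cannot be told apart. Other members among the highest in luminal TEBs were Ndufab1, the acyl carrier protein of complex I, at 0.49 ± 0.15, Atp5k at 0.47 ± 0.10, and Atp5g3, a further c subunit gene, at 0.36 ± 0.07.

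Cox7a2l was lower in luminal TEBs as well. It was at 74.1 and 72.1 CPM in TEB libraries and 106 and 105 CPM in duct libraries of GFP+ cells, and at 88.5 and 81.6 CPM in TEB libraries and 125 and 118 CPM in duct libraries of GFP- cells. In YFP- cells it was at 137 and 124 CPM in TEB libraries and 165 and 184 CPM in duct libraries, and in YFP+ cells at 153 and 167 CPM in TEB libraries and 177 and 185 CPM in duct libraries. Within each gate every duct library was above both TEB libraries, and the log2 fold change over the luminal gates was -0.41 ± 0.05 (SE, adjusted p = 4.3e-06). The 3 other members lower in luminal TEBs were Atp5l, a membrane subunit of the ATP synthase, at -0.52 ± 0.14, Ndufa6, an accessory subunit of complex I, at -0.41 ± 0.08, and Uqcrh at -0.16 ± 0.06.

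The mitochondrially encoded members, by contrast, went different ways in different luminal gates. In YFP- cells all 13 were higher in TEBs (10.5% of all genes), with a median log2 fold change of 0.77. In GFP+ cells 5 were higher (11.8% of all genes), with a median of 0.42, and all 13 values were positive. In GFP- cells 3 were lower (9.65% of all genes) and the median was -0.34. In YFP+ cells none was called by edgeR or DESeq2, and 1 had an unadjusted edgeR p under 0.05, with 4.61% of all genes called higher and 3.25% lower, and the median was -0.05. The YFP- count was 7 without duct replicate 1 or duct replicate 2 of that gate. The GFP+ count was 1 without GFP+ TEB replicate 1 or GFP+ duct replicate 2, 9 without GFP+ duct replicate 1, and 2 or 3 in most other fits that left out a library. The GFP- count was 0 without GFP- duct replicate 1 or either GFP- TEB library. Over all 4 gates 6 of the 13 were higher in TEBs (20% of all genes), an average of these unlike gates.

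mt-Atp8, a small subunit of the membrane part of the ATP synthase, showed the widest spread. In YFP- cells it was at 330 and 381 CPM in TEB libraries and 169 and 189 CPM in duct libraries, and in GFP+ cells at 309 and 286 CPM in TEB libraries and 231 and 206 CPM in duct libraries. In GFP- cells it was at 367 and 334 CPM in TEB libraries and 554 and 476 CPM in duct libraries, and in YFP+ cells at 259 and 332 CPM in TEB libraries and 397 and 342 CPM in duct libraries. TEB libraries were above duct libraries in YFP- and GFP+ cells and below them in GFP- and YFP+ cells. Of its exonic bases 21.1% are shared with mt-Atp6.

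mt-Nd3 behaved likewise in 3 of these gates. It was at 211 and 238 CPM in TEB libraries and 111 and 120 CPM in duct libraries of YFP- cells, and at 173 and 157 CPM in TEB libraries and 110.1 and 106 CPM in duct libraries of GFP+ cells. In GFP- cells it was at 225 and 206 CPM in TEB libraries and 304 and 260.3 CPM in duct libraries. In YFP+ cells the tissues overlapped, with 235 and 241 CPM in TEB libraries and 207 and 256 CPM in duct libraries.

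**Figure D3:**
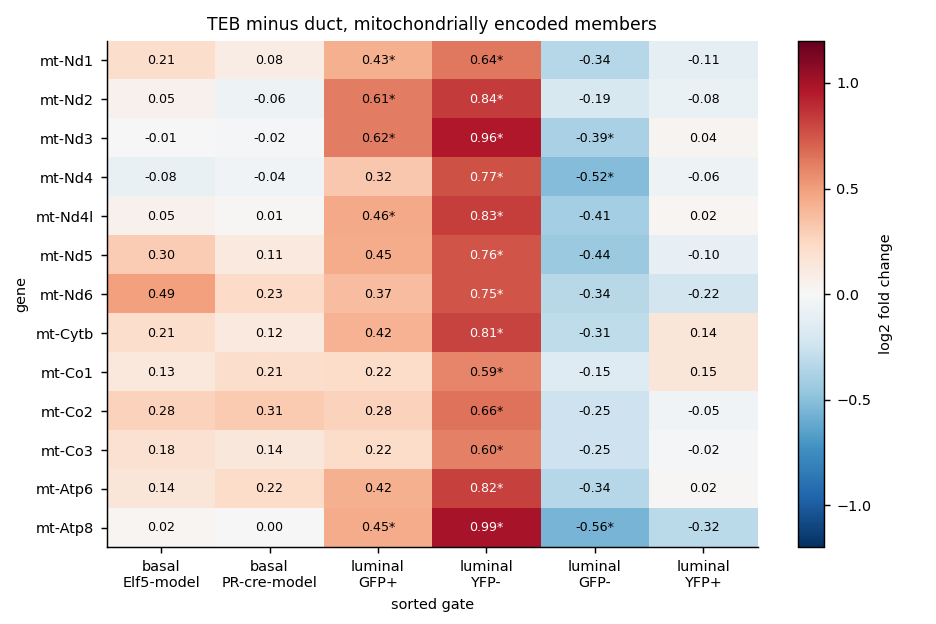
Log2 fold change of TEB over duct for each of the 13 mitochondrially encoded members (rows) in each gate (columns), with the value printed in each cell and a star at an adjusted p under 0.05. All 13 values carry a star in YFP- cells and 5 do in GFP+ cells, where all are positive, while 3 negative values carry a star in GFP- cells.

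The difference between the lineages was itself tested, as the TEB effect in GFP+ and YFP- cells minus the TEB effect in GFP- and YFP+ cells. All 13 mitochondrially encoded members passed (4.93% of all genes were higher in this sense and 5.68% lower), with a median of 0.83. Since these genes are transcribed as long precursors, their 13 calls, here and in the other comparisons, are not independent of each other. The values ran from 0.41 ± 0.12 for mt-Co1 (SE, adjusted p = 0.041) to 1.16 ± 0.15 for mt-Atp8 (SE, adjusted p = 0.00015). Between them lay mt-Cytb at 0.70 ± 0.16, mt-Nd1 at 0.76 ± 0.15, mt-Nd2 at 0.86 ± 0.14 and mt-Nd4 at 0.83 ± 0.13. Of the 92 nuclear-encoded members 1 passed, Ndufa4, at 0.47 ± 0.14 (SE, adjusted p = 0.034), and their median was 0.10. That count of 1 was 18 with total counts alone, 7 with DESeq2, 0 with no filter on low counts and 0 to 6 with a library left out, and the median turned to -0.005 without GFP+ duct replicate 2 and -0.028 without GFP- duct replicate 1. On the summed levels, the same difference of log2 changes was 0.63 for the mitochondrially encoded members, 0.12 for the nuclear-encoded members and 0.51 for their ratio. The TEB differences that enter this contrast have no library in common.

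Leaving out a library kept between 9 and 13 of the 13 calls, with 9 left without YFP+ duct replicate 1. Leaving out both libraries with keratinocyte transcripts kept 12, and raised the nuclear-encoded count to 9. Within the Elf5 model alone 7 of the 13 passed (2.45% of all genes were higher), and within the PR-cre model alone 4 did (1.18% of all genes). All 13 values were positive in each model, from 0.37 to 1.00 in the Elf5 model and from 0.44 to 1.31 in the PR-cre model. No nuclear-encoded member passed within a model in either direction (3.28% of all genes were lower in the Elf5 model and 1.60% in the PR-cre model).

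**Figure D4:**
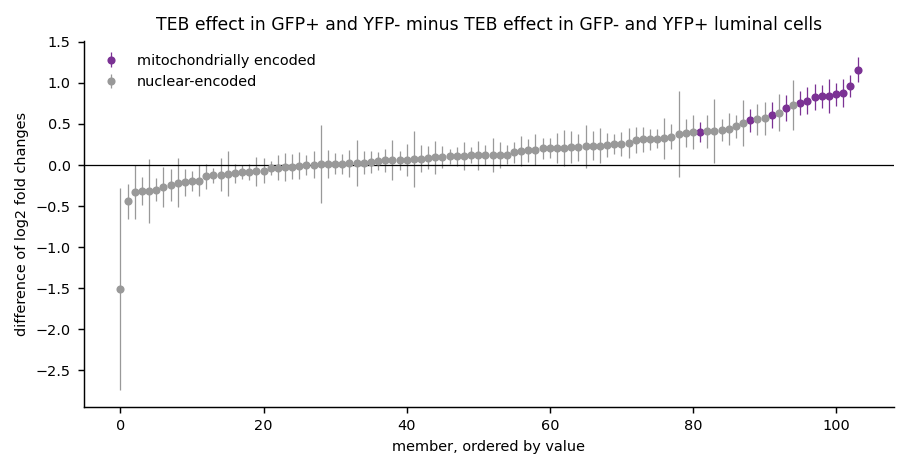
Difference between the TEB effect in GFP+ and YFP- cells and that in GFP- and YFP+ cells (y axis, log2, with SE bars) for each tested member, ordered by value (x axis). Ndufa4l2 is not drawn. The 13 mitochondrially encoded members lie between 0.41 and 1.16.

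The basal and luminal TEB effects were compared in the same way. For 13 of the 92 nuclear-encoded members the TEB effect was higher in basal cells, a share near the 11.4% of all genes. For none was it lower (14.9% of all genes). The median difference was 0.19, and 84 of 92 values were positive. Among the 13 were Atp5l at 0.82 ± 0.25, Atp5g1 at 0.69 ± 0.21, Ndufb8 at 0.57 ± 0.12 and Sdha at 0.21. Of the mitochondrially encoded members mt-Nd3 passed with a lower TEB effect in basal cells, at -0.32 ± 0.11 (SE, adjusted p = 0.045). The count of 13 was 8 without basal Elf5-model TEB replicate 2, GFP+ TEB replicate 2 or GFP- TEB replicate 2. It was 21 without basal Elf5-model duct replicate 1 or GFP+ duct replicate 2, and 32 without GFP- duct replicate 2, the library with most keratinocyte transcripts.

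Basal cells carried less transcript of most nuclear-encoded members than the average of the luminal gates. Of 92, 54 were lower (32.2% of all genes) and 11 were higher (35.5% of all genes), with a median log2 fold change of -0.21, against 0.02 over all genes. The luminal side averages unlike lineages. In TEBs and in ducts, the nuclear-encoded sums of basal libraries overlapped those of GFP+ and YFP- libraries. They lay below those of GFP- and YFP+ libraries of the same tissue. Complex IV had 10 of 14 members lower and 2 higher, complex V 11 of 17 lower and none higher, and complex I 23 of 40 lower and 4 higher. Of the 13 mitochondrially encoded members 4 were higher, a share near the 35.5% of all genes, and none was lower (32.2% of all genes). Their median was 0.07, again against an average of the luminal lineages, of which GFP+ and YFP- cells had the lower levels. The count of 4 was 0 with total counts alone, and 0 without basal Elf5-model duct replicate 1, PR-cre-model TEB replicate 1 or PR-cre-model duct replicate 2, and 2 without Elf5-model TEB replicate 1 or YFP+ TEB replicate 1. The log2 ratio of the mitochondrially to the nuclear-encoded sum was 0.25 higher in basal cells.

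Ndufa7, an accessory subunit of complex I, had the lowest log2 fold change of the tested members. It ran from 23.4 to 34.8 CPM with a median of 31.1 in the 8 basal libraries, and from 36.5 to 116 CPM with a median of 56.8 in the 16 luminal libraries. The cell types did not overlap, and the log2 fold change was -1.0 ± 0.06 (SE, adjusted p = 5e-11). Ndufa11 went the other way, with 41.4 to 63.4 CPM and a median of 48.8 in basal libraries and 19.6 to 39.7 CPM and a median of 31 in luminal libraries, again without overlap, at 0.75 ± 0.07 (SE, adjusted p = 4.7e-08). Both belong to complex I, so the members of a complex did not all move together.

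Sdha fell by 0.44 in basal cells relative to luminal cells, also without overlap, while Sdhb rose by 0.23. Cox4i1, the common form of subunit 4 of complex IV, had a log2 fold change of -0.43 ± 0.06, Cox5a of -0.63 ± 0.09 and Uqcrfs1 of -0.70 ± 0.06. Cox6b2, a form of subunit 6b known from testis, was higher at 1.08 ± 0.21 on low levels, 2.18 to 4.52 CPM in basal libraries and 0.486 to 4.38 CPM in luminal libraries. Within the PR-cre model 35 members were lower (27.8% of all genes), 6 were higher (30.9%), and within the Elf5 model 1 mitochondrially encoded member was higher (31.8%).

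Among luminal cells the members were mostly lower in GFP+ and YFP- cells than in GFP- and YFP+ cells, in both genomes. Of 92 nuclear-encoded members 66 were lower (27.4% of all genes) and 4 higher (29.6% of all genes), with a median log2 fold change of -0.34, against 0.04 over all genes. All 13 mitochondrially encoded members were lower, with a median of -0.52, from -0.29 for mt-Co1 to -0.71 for mt-Nd3. The count of 13 was the same in each fit that left out a library. All complexes took part: complex I had 29 of 40 nuclear-encoded members lower, complex II 2 of 4, complex III 7 of 8, complex IV 11 of 14 and complex V 14 of 17.

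mt-Cytb was the mitochondrially encoded member without overlap. It was at 4229 to 4682 CPM in TEB libraries and 2511 to 3909 CPM in duct libraries of GFP+ and YFP- cells, and at 5264 to 5520 CPM in TEB libraries and 4710.3 to 7700 CPM in duct libraries of GFP- and YFP+ cells. Its log2 fold change between the lineages was -0.62. The mitochondrially encoded difference was wider in ducts than in TEBs, which is the interaction given above.

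Forms of complex IV subunits split by lineage. Cox7a1, a form of subunit 7a known from heart and skeletal muscle, was at 5.46 and 6.63 CPM in TEB libraries and 5.58 and 3.67 CPM in duct libraries of GFP+ cells, against 1.61 and 2.60 CPM in TEB libraries and 1.06 and 1.82 CPM in duct libraries of GFP- cells. It was at 4.26 and 4.8 CPM in TEB libraries and 3.13 and 5.33 CPM in duct libraries of YFP- cells, against 1.69 and 1.80 CPM in TEB libraries and 1.37 and 0.990 CPM in duct libraries of YFP+ cells. Every GFP+ and YFP- library was above every GFP- and YFP+ library, and the log2 fold change was 1.60 ± 0.20 (SE, adjusted p = 2.5e-06). Summed skeletal muscle markers were at 3.69 to 10.5 CPM in GFP+ and YFP- libraries and 4.24 to 12.6 CPM in GFP- and YFP+ libraries.

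Cox7a2, the form of subunit 7a found in most tissues, went the other way, with a mean of 26.4 ± 5.08 CPM in GFP+ and YFP- libraries and 41.7 ± 5.19 CPM in GFP- and YFP+ libraries (SD, n = 8 each) and a log2 fold change of -0.66 ± 0.10. Cox6b2 was at 0.486 to 1.43 CPM in GFP+ and YFP- libraries and 1.94 to 4.38 CPM in GFP- and YFP+ libraries, without overlap, at -1.99 ± 0.27 (SE, adjusted p = 5.8e-06). Cox6b1, its common counterpart, was also lower, at -0.43 ± 0.09. Cox4i2, a form of subunit 4 known from lung and raised by low oxygen in some cells, was at 0.154 to 3.43 CPM in GFP+ and YFP- libraries and 0 to 0.616 CPM in GFP- and YFP+ libraries. These overlapped, and 2 libraries had no count, where 3 counts would have been 0.0571 to 0.0960 CPM. Its fitted log2 fold change of 2.27 ± 0.62 rests on few counts.

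**Figure D5:**
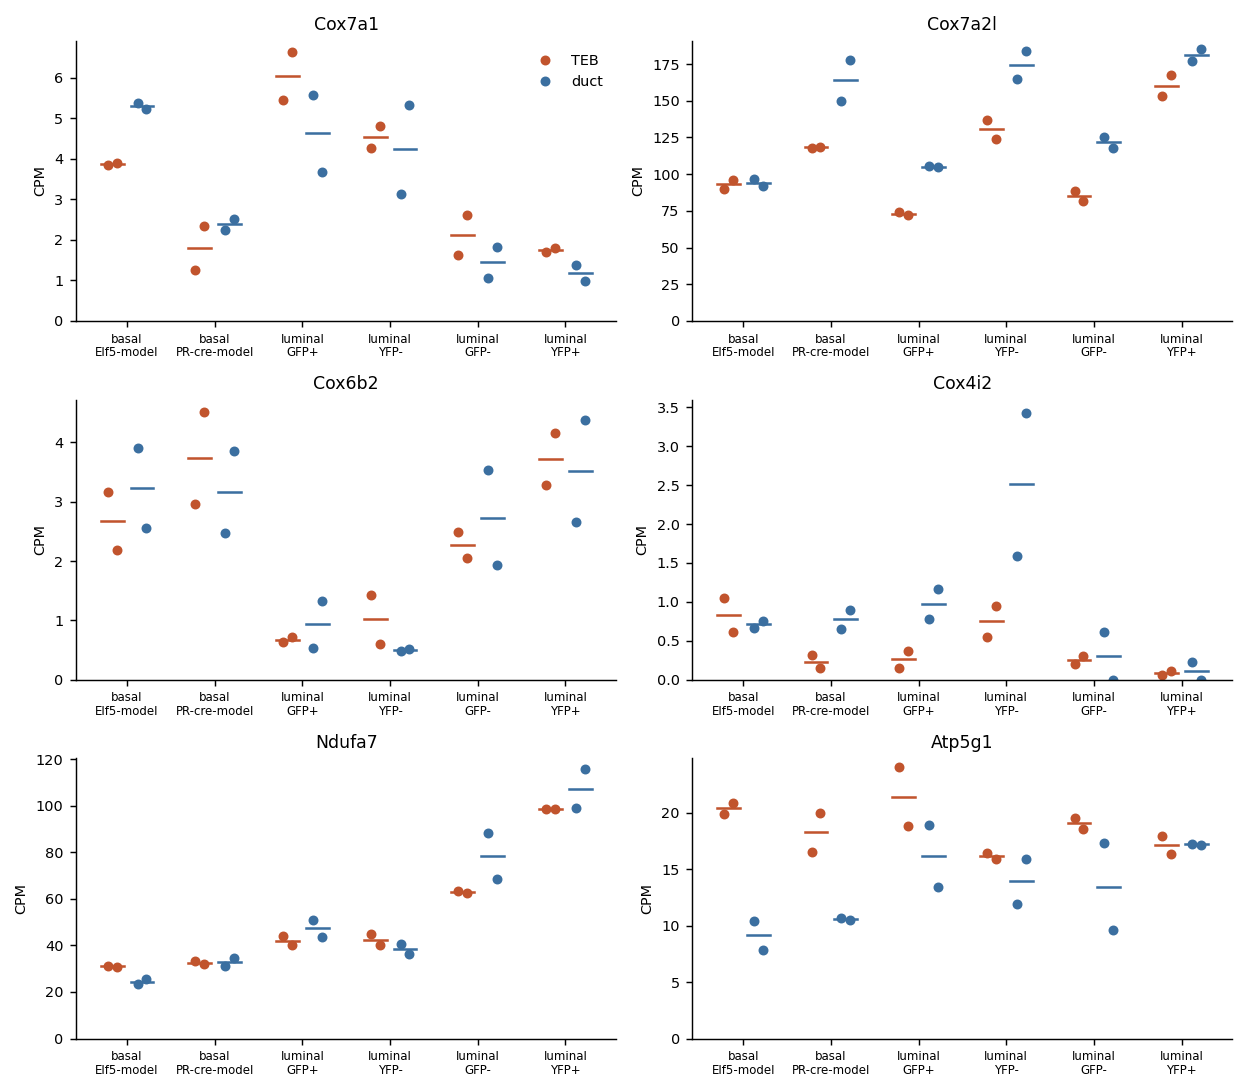
CPM of 6 members in each gate, with TEB libraries left of duct libraries. Points are libraries and bars are group means. Cox7a1 is 3.13 to 6.63 CPM in GFP+ and YFP- cells and 0.990 to 2.60 CPM in GFP- and YFP+ cells, Cox6b2 is lower in those GFP+ and YFP- cells, Ndufa7 is highest in GFP- and YFP+ cells, and Cox7a2l is higher in PR-cre-model than in Elf5-model cells.

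Ndufa7 was at 36.5 to 51.1 CPM in GFP+ and YFP- libraries and 62.5 to 116 CPM in GFP- and YFP+ libraries, without overlap, at -1.0 ± 0.06 (SE, adjusted p = 5.2e-10). Basal cells, at 23.4 to 34.8 CPM, were lowest, so the order was basal, GFP+ and YFP-, GFP- and YFP+, with no overlap between neighbours. Cycs was at a mean of 31.02 ± 3.11 CPM in GFP+ and YFP- libraries and 27.7 ± 5.79 CPM in GFP- and YFP+ libraries (SD, n = 8 each), and was among the 4 members higher, at 0.18 ± 0.07 (SE, adjusted p = 0.039). By reporter, Cycs was called in YFP- minus YFP+ cells, at 0.31, and was not called in GFP+ minus GFP- cells, at 0.04. For the members as a set, the medians of both genomes were negative in each reporter. GFP+ minus GFP- cells had 13 mitochondrially encoded and 39 nuclear-encoded members lower (21.7% of all genes) and 3 higher (24.1%). YFP- minus YFP+ cells had 11 mitochondrially encoded and 68 nuclear-encoded members lower (24.8% of all genes) and 3 higher (25.5%).

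A few members differed between the mouse models themselves, whatever the gate, and these were singled out after their values were seen. Ndufs5, a small accessory subunit of complex I, was at a mean of 1.28 ± 0.679 CPM in Elf5-model libraries and 6.91 ± 2.68 CPM in PR-cre-model libraries (SD, n = 12 each). The models did not overlap, at a log2 fold change of -2.42 ± 0.17 (SE, adjusted p = 1.2e-08). Cox7c, a small subunit of complex IV, was at 4.45 ± 1.10 CPM in Elf5-model and 12.7 ± 2.99 CPM in PR-cre-model libraries (SD, n = 12 each), also without overlap, at -1.51 ± 0.12. Cox7a2l was lower in Elf5-model libraries at -0.70 ± 0.04. In all 6 nuclear-encoded members were higher in the Elf5 model (14.0% of all genes) and 10 were lower (13% of all genes), and 9 mitochondrially encoded members were higher. The labels do not name strain or sequencing batch, so model and such differences cannot be told apart.

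Members with near copies in the genome are uncertain, since the treatment of reads with several matches is not given in the sources used here. The count table holds Ndufb4 with 1875 counts in all, against 10606 for Ndufb4b and 13577 for Ndufb4c, and pseudogenes of Ndufs5, Uqcrh and Atp5c1 were in the table and left out. mt-Nd6 is transcribed from the strand opposite to the other 12 mitochondrial protein genes.

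Genes that serve the same pathway were counted from fixed lists. In basal TEBs, 13 of 18 carriers, porins and import genes were higher (20.9% of all genes) and none was lower (22.8% of all genes), with a median log2 fold change of 0.50. Tomm40, the pore of the outer-membrane translocase, rose by 1.10 ± 0.17 and Timm50, a receptor of the inner-membrane translocase, by 1.03 ± 0.15. Of 17 tricarboxylic acid cycle and pyruvate dehydrogenase genes 9 were higher, with Fh1 (fumarase) at 0.64, and 1, Ogdh, was lower at -0.40. In luminal TEBs, where 20% of all genes were higher and 18.6% lower, 13 of the carriers were higher and 1 lower, and 8 cycle genes were higher and none lower. Between the lineages, where 29.6% of all genes were higher and 27.4% lower in GFP+ and YFP- cells, 4 carriers were higher and 7 lower, and 3 cycle genes were higher and 9 lower, with Fh1 at -0.78.

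Regulators of mitochondrial biogenesis split. In basal TEBs 8 of 25 were higher and 3 lower, against 20.9% and 22.8% of all genes. Ppargc1a, a coactivator of nuclear mitochondrial genes, was at 13.6 and 10.2 CPM in TEB libraries and 5.30 and 4.83 CPM in duct libraries of the Elf5 model, and at 6.94 and 8.31 CPM in TEB libraries and 1.88 and 0.631 CPM in duct libraries of the PR-cre model. TEB libraries were above duct libraries throughout, at 1.92 ± 0.28 (SE, adjusted p = 2.9e-05), while its relative Ppargc1b fell by 1.09 and Myc by 1.27. Ppargc1a was also higher in luminal TEBs, at 0.52 ± 0.19, and in GFP+ and YFP- cells relative to GFP- and YFP+ cells, at 1.08 ± 0.19, where the members themselves were mostly lower. Esrrb, an estrogen-related receptor, was lower in GFP+ and YFP- cells at -4.60. Of 34 other assembly factors 8 were higher in basal TEBs, a share near the 20.9% of all genes, and 3 were lower (22.8% of all genes), with the complex IV heme factor Cox10 at 0.79 and Surf1, another complex IV factor, at -0.71. In GFP+ and YFP- cells 9 were higher, near the 29.6% of all genes, and 15 were lower (27.4% of all genes).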

How the data were processed

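Counts per gene in 24 libraries (12 groups of 2) were deposited by the authors. Per the submitters' processing notes they used featureCounts and mm10, and per the labels' protocols the TruSeq RNA v2 kit. Aligner, annotation release, strand setting and multi-read setting: not given in the sources used here. From 27179 rows (25275 named through RefSeq, 18 through GENCODE), filterByExpr (minimum count 10, minimum total 15) kept 18109. edgeR 4.0.16 fitted 12 group means with TMM factors and robust quasi-likelihood (12 residual degrees of freedom), and a call is an adjusted p under 0.05 over those genes. Contrasts average groups equally. Scripts were tested on simulated data. Alternatives were RLE, upper-quartile, total-count and nuclear-gene scaling, no filter, a replicate block, only the groups compared, DESeq2 1.42.0, each library left out, and both libraries with keratinocyte transcripts left out. Fits within a model were chosen after seeing the data. Floors of 3 counts cover counting error only.

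Members and lists were chosen with earlier results of these data known. Named were all 13 mitochondrially encoded members, up to 8 nuclear-encoded members per direction and contrast of group means with the largest change, a fixed panel of core subunits and alternative forms, and up to 3 genes per direction of each other list; others were named after their values were seen. Promoters came from RefSeq (GRCm38.p6). Replicate chi-square per degree of freedom was 18.0 to 174 (genes with a summed count of 20 or more), so all replicates differed by more than counting error.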

Additional observations from a re-analysis of the deposited data

Results flagged for a closer look

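Of 312 sets of 4 libraries (a member or a sum in 1 tissue of basal cells or of a luminal lineage), 24 held a library far from the other 3 by Dixon's test, which chance alone gives in about 1 of 20 sets. Of these, 8 were in luminal GFP+ duct replicate 1, which stood above the other GFP+ and YFP- duct libraries: the nuclear-encoded sum was 7178 CPM (others 5913 to 6035), mt-Nd4l 271 CPM (others 175 to 181), mt-Nd5 2219 CPM (others 1493 to 1562), mt-Nd6 518.5 CPM (others 317 to 335), mt-Cytb 3909 CPM (others 2511 to 2735), mt-Co2 1725 CPM (others 1212 to 1294), mt-Atp6 1298 CPM (others 958 to 986.5) and Cyc1 88.8 CPM (others 63.7 to 66.4).

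Basal Elf5-model duct replicate 2 stood below the other basal duct libraries in Atp5g1 at 7.81 CPM (others 10.4 to 10.7), Cyc1 at 56.8 CPM (others 66.2 to 67.4) and Uqcrfs1 at 51.7 CPM (others 67.6 to 70.5). GFP- duct replicate 2, which also carried keratinocyte transcripts, was low in Atp5g1 at 9.59 CPM (others 17.1 to 17.3) and Cyc1 at 70.8 CPM (others 112 to 118), and high in Ndufa4l2, a paralog of Ndufa4, at 28.2 CPM (others 0 to 0.0300). Basal PR-cre-model TEB replicate 2 was low in mt-Nd4l at 283 CPM (others 348 to 359) and mt-Cytb at 4450 CPM (others 5096 to 5227), and PR-cre-model duct replicate 1 was high in Ndufa6 at 39.0 CPM (others 31.5 to 32.7). YFP- TEB replicate 2 was high in Ndufa4l2 at 1.90 CPM (others 0.0386 to 0.224) and Atp5g2 at 13.1 CPM (others 8.94 to 9.599). YFP- TEB replicate 1 was high in Cox6b2 at 1.43 CPM (others 0.607 to 0.712) and Ndufaf4 at 22.9 CPM (others 21.1 to 21.2), and GFP+ duct replicate 2 was high in Cox6b2 at 1.33 CPM (others 0.486 to 0.533). YFP+ TEB replicate 2 was high in Cox6c at 61.9 CPM (others 59.5 to 59.8). It was also flagged in Ndufa4l2, at 0.0231 CPM where the others had no count, but this is below the 0.0735 CPM of 3 counts in that library.

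Differences of TEB effects between cell types, each tested as an interaction in edgeR, passed for 28 values. Basal minus luminal, on the log2 scale, they were 0.82 for Atp5l, 0.69 for Atp5g1, 0.62 for Ndufaf5, 0.62 for Atp5md, 0.57 for Ndufb8, 0.49 for Ndufaf4, 0.48 for Uqcr10, 0.44 for Ndufc2, 0.41 for Cox7b, 0.40 for Atp5mpl, 0.38 for Ndufa10, 0.24 for Uqcrc2, 0.21 for Sdha and -0.32 for mt-Nd3. GFP+ and YFP- minus GFP- and YFP+ luminal cells, they were 1.16 for mt-Atp8, 0.96 for mt-Nd3, 0.88 for mt-Nd5, 0.86 for mt-Nd2, 0.84 for mt-Nd6, 0.83 for mt-Nd4, 0.83 for mt-Nd4l, 0.78 for mt-Atp6, 0.76 for mt-Nd1, 0.70 for mt-Cytb, 0.61 for mt-Co2, 0.54 for mt-Co3, 0.41 for mt-Co1 and 0.47 for Ndufa4.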

How the results depend on the processing

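With total counts alone, the median of all genes shifted by 0.18 in basal TEBs, 0.14 in luminal TEBs and 0.18 in the lineage interaction (the TEB effect in GFP+ and YFP- minus that in GFP- and YFP+ cells), and the members shifted with it. In basal TEBs the nuclear-encoded median was then 0.51 with 0 lower, the mitochondrially encoded median 0.35 with 8 higher, and the sums 0.54 and 0.34; in luminal TEBs 60 nuclear-encoded (median 0.29) and 13 mitochondrially encoded members were higher, with sums of 0.31 and 0.34. In the lineage interaction 18 nuclear-encoded members passed (median 0.28, sum 0.30), the mitochondrially encoded median was 1.02 and sum 0.81, and the sums of the assembly factors (0.16) and complex II (0.18) turned positive. Basal minus luminal, 0 mitochondrially encoded members were then higher, and in the basal minus luminal interaction 0 were lower, as with upper-quartile factors (0) and no filter (0). Upper-quartile factors left 3 mitochondrially encoded members higher in luminal TEBs.

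Mitochondrially encoded members higher in basal TEBs were 0 with RLE factors and 0 with DESeq2, and 2 with no filter, with only the groups compared, and without the libraries with keratinocyte transcripts. Nuclear-encoded members lower in basal TEBs were 2 with RLE, DESeq2 or without those libraries. Without those libraries, 2 mitochondrially encoded members were higher in luminal TEBs, 20 nuclear-encoded members passed as higher and 0 mitochondrially encoded members as lower in the basal minus luminal interaction, 9 nuclear-encoded members passed in the lineage interaction (median 0.22, sum 0.24), 1 mitochondrially encoded member was called in Elf5-model basal cells and 2 nuclear-encoded ones in GFP- cells. Nuclear-encoded members in the lineage interaction were 2 with RLE, upper-quartile or nuclear-gene library sizes, 0 with no filter and 7 with DESeq2. DESeq2 and RLE each put 1 nuclear-encoded member lower in the basal minus luminal interaction, and DESeq2 put 2 mitochondrially encoded ones lower there, called 5 in GFP- cells, and called 2 nuclear-encoded ones in YFP+ cells. Without the most abundant member of each complex, the complex II sum turned to 0.17 basal minus luminal, to -0.011 in the basal minus luminal interaction and to 0.059 in the lineage interaction, and the lineage interaction of the ratio was 0.63. Within the Elf5 model 7 and within the PR-cre model 4 mitochondrially and in each 0 nuclear-encoded members passed in the lineage interaction; basal minus luminal, 1 mitochondrially encoded member was higher in the Elf5 model, and 6 nuclear-encoded members were higher and 35 lower in the PR-cre model, on fewer samples. Where no construction is named, the cause was not tested.

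Deviations of libraries with the same replicate number were at most weakly correlated. Over 30 pairs of groups the correlation was positive throughout, from 0.003 to 0.15, and over 0.1 in 4. A weak pairing of the samples by replicate number was not excluded, and the main fit has no block. With the replicate block 53 nuclear-encoded and 2 mitochondrially encoded members were higher in basal TEBs, 39 and 8 in luminal TEBs, 2 nuclear-encoded and 13 mitochondrially encoded members passed in the lineage interaction, and in the basal minus luminal interaction 1 nuclear-encoded and 2 mitochondrially encoded members were lower; members called were 23 nuclear-encoded and 10 mitochondrially encoded in GFP+ cells, 5 mitochondrially encoded in GFP- cells and 1 in Elf5-model basal cells.

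Leaving out each library gave these ranges. Basal TEBs: nuclear-encoded higher 39 to 57 and lower 0 to 1, mitochondrially encoded higher 0 to 4, medians 0.30 to 0.42 and 0.14 to 0.27, sums 0.31 to 0.41 and 0.09 to 0.21, ratio -0.26 to -0.16. Luminal TEBs: 18 to 41 higher and 3 to 7 lower, mitochondrially encoded 3 to 10, medians 0.10 to 0.19 and 0.11 to 0.23, sums 0.13 to 0.21 and 0.15 to 0.25. Basal minus luminal: 8 to 11 higher and 50 to 62 lower, mitochondrially encoded higher 0 to 4, medians -0.27 to -0.20 and 0.003 to 0.083. GFP+ and YFP- minus GFP- and YFP+: nuclear-encoded higher 3 to 5 and lower 64 to 73, mitochondrially encoded lower 13 to 13, medians -0.42 to -0.32 and -0.62 to -0.49. Basal minus luminal interaction: nuclear-encoded higher 8 to 32 and lower 0 to 1, mitochondrially encoded lower 0 to 1, medians 0.18 to 0.30 and -0.09 to 0.08. Lineage interaction: mitochondrially encoded 9 to 13, nuclear-encoded higher 0 to 6 and lower 0 to 2, medians 0.65 to 0.92 and -0.03 to 0.16, sums 0.53 to 0.73 and 0.04 to 0.20, ratio 0.45 to 0.57; the nuclear-encoded median turned to -0.005 without GFP+ duct replicate 2 and -0.028 without GFP- duct replicate 1. Nuclear-encoded and then mitochondrially encoded members called were 30 to 62 and 0 to 2 in Elf5-model basal cells, 2 to 21 and 0 to 0 in PR-cre-model basal cells, 1 to 28 and 0 to 4 in GFP-, 1 to 18 and 1 to 9 in GFP+, 0 to 12 and 7 to 13 in YFP-, and 0 to 1 and 0 to 0 in YFP+ cells; they were 31 to 56 and 13 to 13 for GFP+ minus GFP-, 62 to 76 and 7 to 11 for YFP- minus YFP+, and 14 to 21 and 8 to 11 between models. Of 178 named members by comparison, 1461 refits kept direction and call, 51 lost and 43 gained the call and 0 reversed; over left-out libraries 4055 kept both, 170 lost and 47 gained the call and 0 reversed.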

Other observations

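Glycolysis genes, from a fixed list of enzymes from glucose uptake to lactate, were mixed in basal TEBs, with 6 of 22 higher and 5 lower, shares near the 20.9% and 22.8% of all genes. Eno1 (enolase) was at 0.88 and Pkm (pyruvate kinase) at 0.57, while Pdk4, a kinase that shuts pyruvate dehydrogenase, was at -1.38 on the log2 scale. Of 14 hypoxia response genes 2 were higher and 7 lower in the same comparison, with Adm (adrenomedullin) at -2.33 and Ndrg1 at -1.32. In the lineage interaction, where all 13 mitochondrially encoded members had positive values, 7 of the 22 glycolysis genes passed with negative values (5.68% of all genes) and none with positive (4.93% of all genes), among them Aldoa (aldolase A) at -1.08 ± 0.16 and Ldha (lactate dehydrogenase A) at -0.91. That count is from the fit with every library. Summed glycolysis genes were at 2155 CPM in GFP- duct replicate 2, the library with most keratinocyte transcripts, and at 2998 CPM in GFP- duct replicate 1. Both were below the GFP- TEB libraries, at 4783 and 4251 CPM.

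The 2 mitochondrial rRNA genes, which are not members and were looked at after the other values were seen, were lower in basal TEBs, where the protein genes were not. mt-Rnr1 was at 410 to 1456 CPM in basal TEB libraries and 1837 to 3606 CPM in basal duct libraries, and mt-Rnr2 at 341 to 1552 CPM in TEB and 1430 to 4010 CPM in duct libraries, with no overlap in mt-Rnr1 and overlap in mt-Rnr2. By edgeR their log2 fold changes were -1.76 ± 0.29 (SE, adjusted p = 0.00017) and -1.70 ± 0.25 (SE, adjusted p = 5.5e-05). They were higher in the Elf5 than in the PR-cre model, at 1.35 ± 0.16 and 1.42 ± 0.14, as were 9 of the 13 mitochondrially encoded members (14% of all genes), at a median of 0.25. Atpif1, the inhibitor of the ATP synthase, which the symbol rule left out, was lower in GFP+ and YFP- cells than in GFP- and YFP+ cells at -0.63 ± 0.05.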
